A study of Mus musculus with 2 samples.

Results

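Immediate early genes are the genes whose transcription a stimulus switches on without new protein synthesis. The set described here holds 10 of them, taken by name from the deposited gene and transcript tables: Fos, Fosb and Fosl2 of the Fos family, Jun, Junb and Jund of the Jun family, the zinc finger factor Egr1, the neuronal factor Npas4, the nuclear protein Ier2 and the synaptic protein Arc. Of these 10 genes, 9 were among the 13381 protein-coding genes of the gene table, and Jund was not listed. Expression was given as FPKM (fragments per kilobase of transcript, scaled to the mapped fragments of the library), so that levels of different genes can be compared per length. Of the 9 listed genes, 8 reached 1 FPKM in at least 1 library, and Fosb stayed under that level in both.

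The data were 2 RNA libraries of mouse brain tissue, 1 titled miR-7KD (animal 3) and 1 titled WT (animal 7), both of strain C57BL/6J. The miR-7KD title stands for deficiency of the microRNA miR-7, and how it was brought about is not stated in the labels. The mice had received LPS, a bacterial cell wall component that sets off inflammation, at 2.5 mg/kg into the abdomen 12 h before brain tissue was collected, although the labels do not mention LPS. The labels give an age of 6 to 8 weeks and the study's methods 8 to 10 weeks. The extraction text speaks of retinas while the tissue fields say brain, and pan-neuronal markers were present (summed FPKM 792 in the miR-7KD-titled library, 738 in the WT-titled library over 8 genes). Genotype fields run against the titles: the sample titled miR-7KD is recorded as wild type, and the sample titled WT as miR-7 KD. The descriptions follow the genotype fields as to the replicates each sample stands for, call both mice wild type, and do not say whether RNA was pooled. Libraries are therefore called by their titles, as the miR-7KD-titled library and the WT-titled library, and a ratio always sets the first over the second. With 1 library per title there is no replicate check on any difference, no p-value can be given, and animal, genotype and library cannot be told apart. No group without LPS was among these libraries, so no value here measures induction.

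Proteins of the Fos and Jun families pair through leucine zippers to form AP-1, a transcription factor, and Fos proteins need a Jun partner while Jun proteins can also pair among themselves. In neurons, calcium entry and the ERK, p38 and CaM kinases act on SRF, its ternary complex partners and CREB, which sit on the promoters of these genes, and the mRNAs are short-lived, so that Fos, Arc and Egr1 are used as marks of recent activity. Most transcripts of this kind are back near baseline within hours.

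The titles name miR-7, whose 5′ arms from RefSeq (GRCm38.p6) are shown because the seed, bases 2 to 8 in capitals, sets which sequences a microRNA can pair with. The first is made from Mir7-1 on chr13:58392841-58392863 (minus strand) and Mir7-2 on chr7:78888295-78888317 (plus strand), the second from Mir7b on chr17:56243017-56243040 (plus strand).
miR-7a-5p: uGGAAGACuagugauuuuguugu
miR-7b-5p: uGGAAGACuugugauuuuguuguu
Both share 1 seed. Its complement GTCTTCC occurred, on the transcript's own strand, in the longest annotated 3′-UTR (GENCODE M21) of 1 of the 10 immediate early genes, Fos, and in 14.2% of the 11883 genes at 1 FPKM or more that have an annotated 3′-UTR. The Fos match, in capitals, is shown within a window of 30 bases. That window lies at chr12:85476525-85476554 (GRCm38, plus strand), within the last exon and at bases 67 to 96 of the 3′-UTR.
Fos 3′-UTR: aggagaaacacGTCTTCCctcgaaggttcc
A match of letters is a description and does not show pairing.

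Most immediate early genes differed by less than 2-fold between the libraries. Among the 8 genes at 1 FPKM or more, Ier2 was at least 2-fold higher and Junb at least 2-fold lower, 1 gene each way, with 0.1 FPKM added to each value. Over all 11969 genes at that level, 6.01% were higher by that measure and 5.58% lower, 11.6% in all. For the 8 immediate early genes the median of the log2 ratios was -0.14, beside -0.01 over all genes. The remaining 6 genes, Fos, Fosl2, Jun, Egr1, Arc and Npas4, lay between -0.95 and 0.30.

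**Figure D1:**
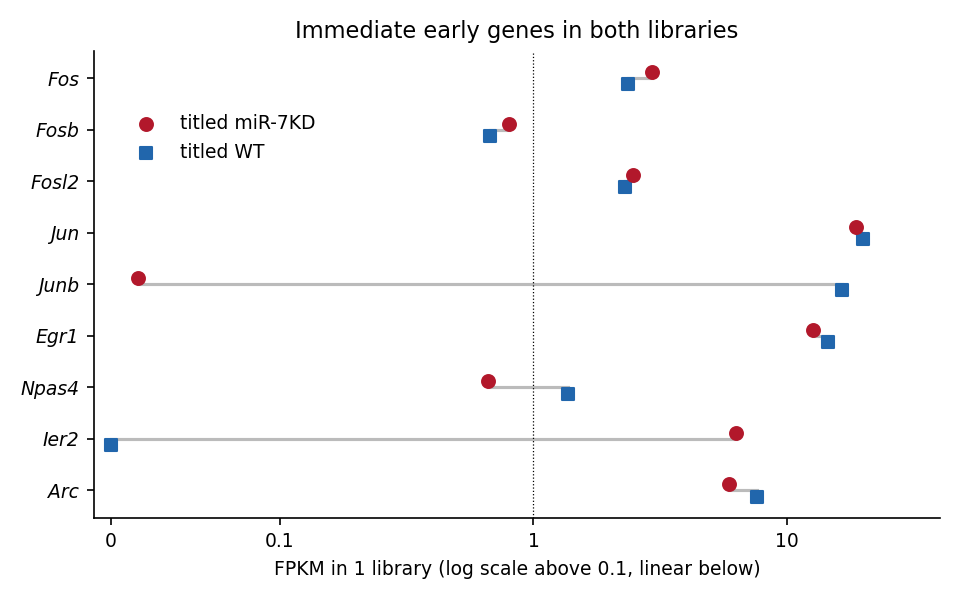
FPKM of the 9 listed immediate early genes (horizontal axis, logarithmic above 0.1 and linear below) in the miR-7KD-titled library (circles) and the WT-titled library (squares), 1 library each; the dotted line marks 1 FPKM. The points of Fos, Fosl2, Jun, Egr1 and Arc lie close together, whereas Junb was at 0.0163 against 16.5 FPKM and Ier2 at 6.29 FPKM against a listed 0.

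The Fos family was low in both libraries and differed little between them. Fos (chr12:85473890-85477273, plus strand, 4 exons), the classical marker of neuronal activation, had 2.94 FPKM in the miR-7KD-titled library and 2.37 FPKM in the WT-titled library. Its log2 ratio was 0.30. Fosb (chr7:19302696-19310051, minus strand, 4 exons), whose truncated splice form deltaFosB accumulates under chronic stimulation, had 0.802 and 0.674 FPKM in the miR-7KD-titled and WT-titled libraries. Fosl2 (chr5:32135801-32157842, plus strand, 4 exons), which encodes Fra-2, had 2.46 FPKM in the miR-7KD-titled library and 2.31 FPKM in the WT-titled library, a log2 ratio of 0.09. All 3 were slightly above in the miR-7KD-titled library, with ratios of 1.24, 1.19 and 1.07 for Fos, Fosb and Fosl2. The transcript table gave the same direction for each, at 3.24 FPKM for Fos-001, 1.07 for Fosb-001 and 3.60 for Fosl2-001 in the miR-7KD-titled library, and 2.45, 1.04 and 3.39 FPKM for the same transcripts in the WT-titled library. Gene and transcript values come from the same reads, so the shared direction is no independent check. The summed level of the 3 genes was 6.21 FPKM in the miR-7KD-titled library and 5.35 FPKM in the WT-titled library. By gene value the make-up was also much the same, since Fos gave 47.4% of the sum in the miR-7KD-titled library and 44.3% in the WT-titled library, and Fosl2 gave 39.7% in the miR-7KD-titled library and 43.1% in the WT-titled library. By transcript value Fosl2-001 was above Fos-001 in both libraries, so which gene leads the family depends on the value used.

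The window of 100 bases before the Fos start site is shown because a response element and a TATA box lie in it. It lies at chr12:85473790-85473889 (GRCm38.p6, plus strand, RefSeq), and capitals mark TGACG, the core of a cAMP response element (CRE), and TATAAA, the TATA box.
Fos promoter: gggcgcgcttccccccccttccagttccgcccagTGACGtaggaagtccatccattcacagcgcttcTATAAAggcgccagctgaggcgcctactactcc
TGACG began 66 bases and TATAAA 33 bases before the start site, and a second TGACG 129 bases before it. The 300 bases around the start site (250 before, 50 after) were searched in 7 immediate early genes, Fos, Fosb, Fosl2, Jun, Junb, Jund and Npas4. Egr1, Arc and Ier2 were not searched. TGACG was found on either strand in 4 of the 7 (Fos, Fosb, Junb and Npas4), beside 20.8% of 32851 promoters. The full CRE TGACGTCA, which contains TGACG, was found in 0 of the 7 (1.79% of promoters), and TATAAA in 2, Fos and Junb (13.6%). The binding sequence of Egr1, as GCGTGGGCG or GCGGGGGCG, was in 2, Fosb and Fosl2 (3.47%). Neither the AP-1 site TGACTCA or TGAGTCA (5.20% of promoters) nor the CArG box bound by SRF (1.63%) was in any of the 7 windows, which says only that these letters are not in them.

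The Jun family differed by gene. Jun (chr4:95049034-95052222, minus strand, 1 exon), the main partner of Fos, had 18.7 FPKM in the miR-7KD-titled library and 19.9 FPKM in the WT-titled library, a log2 ratio of -0.09. By gene value Jun was the highest of the 9 genes in both libraries. Junb (chr8:84974484-84978718, minus strand), a Jun protein with weaker activation and an antagonist of Jun on some promoters, had 0.0163 FPKM in the miR-7KD-titled library and 16.5 FPKM in the WT-titled library. The difference was -16.4 FPKM, and the log2 ratio with 0.1 FPKM added was -7.15. By gene value Junb was thus the second highest of the set in the WT-titled library and, in the miR-7KD-titled library, the lowest. By listed transcript Junb stood above Jun in the WT-titled library, at 20.9 FPKM for Junb-001 and 19.9 FPKM for Jun-001. The percentiles, shares and ratios that follow use gene values and depend on that choice. In percentiles of all 13381 genes, it stood at 0.605 in the miR-7KD-titled library and 83.2 in the WT-titled library, while Jun stood at 85.7 in the miR-7KD-titled library and 86.4 in the WT-titled library. The summed level of Jun and Junb was 18.7 FPKM in the miR-7KD-titled library and 36.4 FPKM in the WT-titled library, and Junb gave 0.0871% of it in the miR-7KD-titled library and 45.2% in the WT-titled library. Relative to the Fos family, Jun and Junb together were 3.02 times as abundant in the miR-7KD-titled library and 6.80 times in the WT-titled library.

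The start of Junb is shown because this gene had the largest difference in FPKM of the set. The window runs from base -110 to base 10 of the RefSeq start, at chr8:84978739-84978858 (GRCm38.p6, minus strand), with the same elements in capitals.
Junb promoter: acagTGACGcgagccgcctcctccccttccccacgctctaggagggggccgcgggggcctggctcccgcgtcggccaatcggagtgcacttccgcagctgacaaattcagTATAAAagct
TGACG began 106 bases before the RefSeq start and TATAAA at its first base. The start of the listed Junb transcript in GENCODE is 30 bases further downstream, so that TATAAA begins 30 bases before that start.

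The transcript table separates the Junb value into parts. The protein-coding transcript Junb-001 (chr8:84976910-84978718, 1 exon, 1809 bases) was listed at 0 in the miR-7KD-titled library and at 20.9 FPKM in the WT-titled library. In genes whose GENCODE transcripts are all listed (472 values of genes with 2 or more transcripts, at 1 FPKM or more), each gene value equalled the sum of transcript FPKM times transcript length, divided by the length of the union of exons, within 1%. For Junb, that union is 2301 bases and includes a non-coding model of the gene that is not listed, and the product of FPKM and length was 37.9 FPKM × kb in the WT-titled library both for the gene and for Junb-001. In the miR-7KD-titled library it was 0.0375 FPKM × kb for the gene, none of it from Junb-001. Of 13300 genes with a product above 0 there, 15 had a lower one. The coding transcript thus accounted for all of the Junb value in the WT-titled library, and the small value in the miR-7KD-titled library lay outside it.

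The 3′ end of the Junb model overlaps other entries. Prdx2, which encodes an antioxidant peroxiredoxin on the opposite strand, shares 351 of the 4235 bases of the Junb model and was alike in both libraries (51.9 FPKM titled miR-7KD, 53.6 FPKM titled WT). An unannotated transcript of 15 exons on the Junb strand, sharing 143 bases, had 1.41 FPKM in the miR-7KD-titled library and 0.344 FPKM in the WT-titled library. Adding it to Junb gave a log2 ratio of -3.46, still at least 2-fold lower. None of these entries reaches the coding transcript. Whether the counting used strand is not stated, and the part of these entries in the Junb value was not tested.

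Jund (chr8:70698949-70700616, plus strand, 1 exon), which encodes the most constitutive Jun protein, was listed in neither the gene nor the transcript table. The gene table holds no gene whose higher value is under 0.501 FPKM, and for Jund no level can be given from it. An unannotated transcript on the opposite strand (chr8:70693088-70700614, 3 exons, 6169 bases) covers 1666 of the 1668 bases of Jund. It had 2.20 FPKM in the miR-7KD-titled library and 1.49 FPKM in the WT-titled library, a log2 ratio of 0.53. Without stated use of strand, reads of Jund and of an opposite-strand transcript cannot be told apart.

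Egr1 and Npas4 are transcription factors outside AP-1. Egr1 (chromosome 18, 2 exons), a zinc finger factor that binds GC-rich promoters, had 12.7 FPKM in the miR-7KD-titled library and 14.5 FPKM in the WT-titled library. Its log2 ratio was -0.19, and it ranked after Jun in the miR-7KD-titled library and after Jun and Junb in the WT-titled library. Npas4 (chr19:4984355-4989971, minus strand, 8 exons), which responds to calcium entry and acts on inhibitory synapses, had 0.659 and 1.37 FPKM in the miR-7KD-titled and WT-titled libraries. Its ratio of 0.481 was past 2-fold, but with 0.1 FPKM added the log2 ratio was -0.95 and it was not called. With 0.01 FPKM added it was -1.04 and Npas4 was called lower. Npas4 therefore stood at the threshold, at a level where a pseudocount decides the side. Egr1 was 4.31 times as abundant as Fos in the miR-7KD-titled library and 6.14 times in the WT-titled library.

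Arc and Ier2 are not AP-1 factors either. Arc (chr15:74669083-74672570, minus strand, 3 exons), which encodes a synaptic protein that promotes removal of AMPA receptors, had 5.91 FPKM in the miR-7KD-titled library and 7.63 FPKM in the WT-titled library, a log2 ratio of -0.36. Both of its transcripts were lower, with 3.06 and 4.03 FPKM for Arc-001 and 2.86 and 3.61 FPKM for Arc-002 in the miR-7KD-titled and WT-titled libraries. Ier2 (chr8:84661331-84662852, minus strand, 1 exon), a nuclear protein induced by growth factors, had 6.29 FPKM in the miR-7KD-titled library and was listed at 0 in the WT-titled library, so no ratio is given. The gene and its only listed transcript, Ier2-201, carried the same values, as did Jun, Egr1 and Npas4 and theirs. Ier2 and Junb lie 311631 bases apart on chromosome 8, on the same strand, and differed in opposite directions between the libraries. Junb, Ier2 and the unlisted Jund are the 3 genes of the set on that chromosome.

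In order of gene value in the miR-7KD-titled library the genes ran Jun, Egr1, Ier2, Arc, Fos, Fosl2, Fosb, Npas4 and Junb. In the WT-titled library the order was Jun, Junb, Egr1, Arc, Fos, Fosl2, Npas4, Fosb and Ier2. Without Junb and Ier2 the orders differ only in the exchange of Fosb and Npas4, both at 1.37 FPKM or under. By listed transcripts, Fosl2 came before Fos in both libraries and Junb before Jun in the WT-titled library. With no replicates, it is not known which neighbours in these orders differ beyond the spread between animals.

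**Figure D2:**
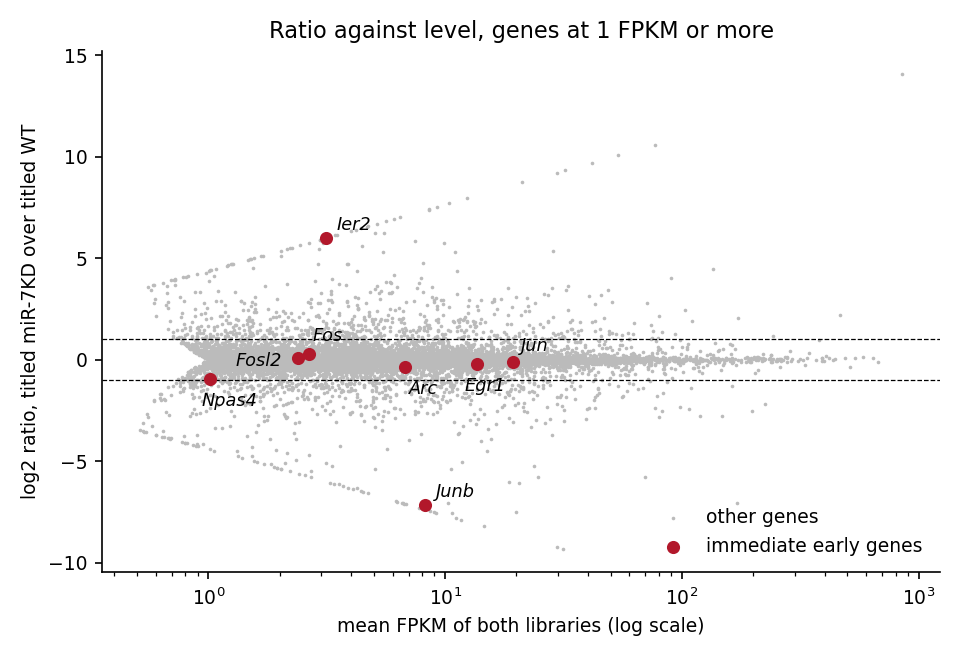
Log2 ratio of the miR-7KD-titled library over the WT-titled library with 0.1 FPKM added (vertical axis) against the mean FPKM of both libraries (logarithmic horizontal axis) for 11969 genes at 1 FPKM or more, with dashed lines at 2-fold. Junb (-7.15) and Ier2 lie on the outer edges formed by genes at or near 0 in one library, and the other 6 immediate early genes lie between the lines.

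Junb and Ier2 share their gene structure with Jun. All 3 have 1 exon, counted in the listed coding transcripts, and genes of 1 exon differed most often between these libraries. Of 177 such genes at 1 FPKM or more, 54.8% were at least 2-fold different (46 higher, 51 lower), beside 31.6% of 1184 genes with 2 to 3 exons, 14.4% of 4118 with 4 to 8, 5.83% of 4804 with 9 to 20, and 2.28% of 1667 with 21 or more. Within the 1-exon class the ratios were split: 74 genes were within 0.5 of 0 on the log2 scale, as Jun was, 93 were at 2 or more in size, as Junb and Ier2 were, and 10 lay between. In that class 46 genes were listed at 0 in the miR-7KD-titled library and 37 in the WT-titled library. A log2 ratio as large as that of Junb was seen in 17 of the 177 genes, Junb included, and one as large as that of Ier2 in 38. Egr1 and Arc fell in the class with 2 to 3 exons, and Fos, Fosl2 and Npas4 in the class with 4 to 8, and in these classes none of the set was called. Beside that share of 54.8%, 2 called of 3 genes of 1 exon is no result about these genes. The part of exon number in the values of Junb and Ier2 was not tested.

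**Figure D3:**
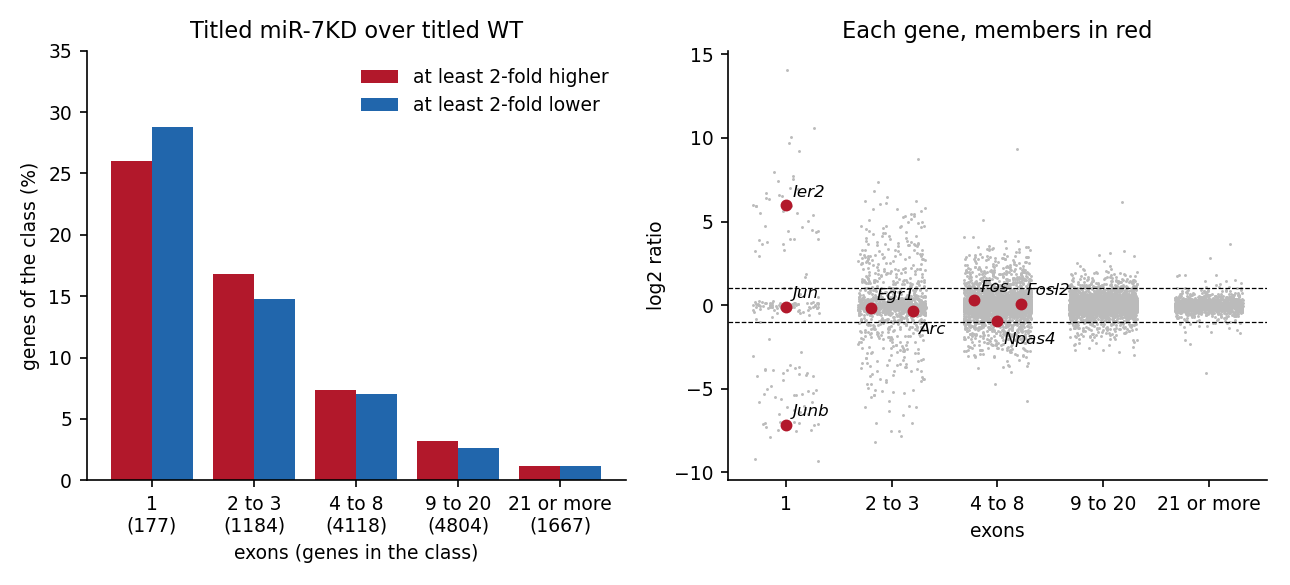
Left, percent of genes in each exon class that were at least 2-fold higher (red) or lower (blue) in the miR-7KD-titled library than in the WT-titled library, with the number of genes in brackets. Right, the log2 ratio of every gene by class, with immediate early genes in red: Junb and Ier2 lie in the outer clouds of the 1-exon class and Jun in the central one.

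Other immediate early genes also mostly differed by less than 2-fold. Of the 35 at 1 FPKM or more in the lists below, 3 were called higher and 3 lower, beside 11.6% of all genes at that level. The genes called had 2 to 5 exons, and over all genes 31.6% were called with 2 to 3 exons and 14.4% with 4 to 8. Beside these shares the counts are no result about the lists. Of 19 further immediate early transcription factors, 16 were listed and 14 reached 1 FPKM, with 1 called higher and 1 called lower. Klf6, a zinc finger factor, had 19.2 FPKM in the miR-7KD-titled library and 4.79 FPKM in the WT-titled library, a log2 ratio of 1.98. Mafk, a small Maf protein, had 0.369 FPKM in the miR-7KD-titled library and 1.05 FPKM in the WT-titled library, a log2 ratio of -1.29. The median of the list was 0.01. Ier5, the only other immediate early gene of 1 exon that was listed, was alike in both libraries, at 14.8 FPKM titled miR-7KD and 12.8 FPKM titled WT. The orphan receptor Nr4a1, often induced together with Fos, had 8.17 and 8.46 FPKM in the miR-7KD-titled and WT-titled libraries, and Egr3 had 1.86 and 2.73 FPKM. These 3 genes were chosen after their values were seen. Egr2, Egr4 and Ier5l were not listed.

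Of 24 immediate early genes that encode effectors, 22 were listed and 21 reached 1 FPKM, with 2 called higher and 2 called lower. Bdnf, a neurotrophin, had 2.04 FPKM in the miR-7KD-titled library and 0.376 FPKM in the WT-titled library, a log2 ratio of 2.17. Dusp6, a phosphatase that inactivates ERK, had 10.1 FPKM in the miR-7KD-titled library and 3.57 FPKM in the WT-titled library, a log2 ratio of 1.48. Dusp1, a phosphatase of p38, JNK and ERK, ran the other way, with 4.01 FPKM in the miR-7KD-titled library and 10.9 FPKM in the WT-titled library, a log2 ratio of -1.43. Nptx2, a synaptic pentraxin, had 3.13 and 13.3 FPKM in the miR-7KD-titled and WT-titled libraries, a log2 ratio of -2.05. The median of the list was 0.07, and the 17 effectors not called lay between -0.35 and 0.70. Zfp36 and Amigo3 were not listed.

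Genes upstream of the immediate early genes were mostly alike, as were genes of many exons in general. Those at 1 FPKM or more had from 5 exons (Elk3) to 31 (Ep300). Over all genes at that level 11.6% were called, with 14.4% at 4 to 8 exons, 5.83% at 9 to 20 and 2.28% at 21 or more. Beside these shares the counts below are no result about the upstream genes. All 22 kinases listed reached 1 FPKM, and 1 was called, Rps6ka2, a ribosomal S6 kinase of the ERK pathway, at 3.30 FPKM in the miR-7KD-titled library and 10.2 FPKM in the WT-titled library (log2 ratio -1.60). The median of the kinases was -0.11. Of 21 transcription factors and coactivators that act on these promoters, 19 reached 1 FPKM and 1 was called, the SRF coactivator Mkl2, at 24.6 FPKM in the miR-7KD-titled library and 12.1 FPKM in the WT-titled library (log2 ratio 1.02), just past the threshold. Srf itself had 6.72 and 6.69 FPKM in the miR-7KD-titled and WT-titled libraries, and Creb1 had 1.82 and 2.63 FPKM. Both were chosen after their values were seen.

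Among 16 partners of AP-1 proteins and proteins that restrain the members, 14 were listed and 13 reached 1 FPKM, with 1 called higher and 2 called lower. Over all genes at that level 11.6% were called. The genes called had 3 or 4 exons, and over all genes 31.6% were called with 2 to 3 exons and 14.4% with 4 to 8. Beside these shares the counts are no result about the list. Jdp2, a repressor that dimerises with Jun, had 17.3 FPKM in the miR-7KD-titled library and 6.69 FPKM in the WT-titled library, a log2 ratio of 1.36. Atf4, a stress response factor, had 17.0 and 68.4 FPKM in the miR-7KD-titled and WT-titled libraries, a log2 ratio of -2.01. Maf, a leucine zipper factor, had 0.0212 FPKM in the miR-7KD-titled library and 2.62 FPKM in the WT-titled library, a log2 ratio of -4.49. The Egr1 corepressors Nab1 and Nab2, chosen after their values were seen, were alike (3.15 and 3.47 FPKM for Nab1, 8.91 and 9.72 FPKM for Nab2, titled miR-7KD and titled WT). The median of the list was 0.02. Atf7 and Batf were not listed.

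**Figure D4:**
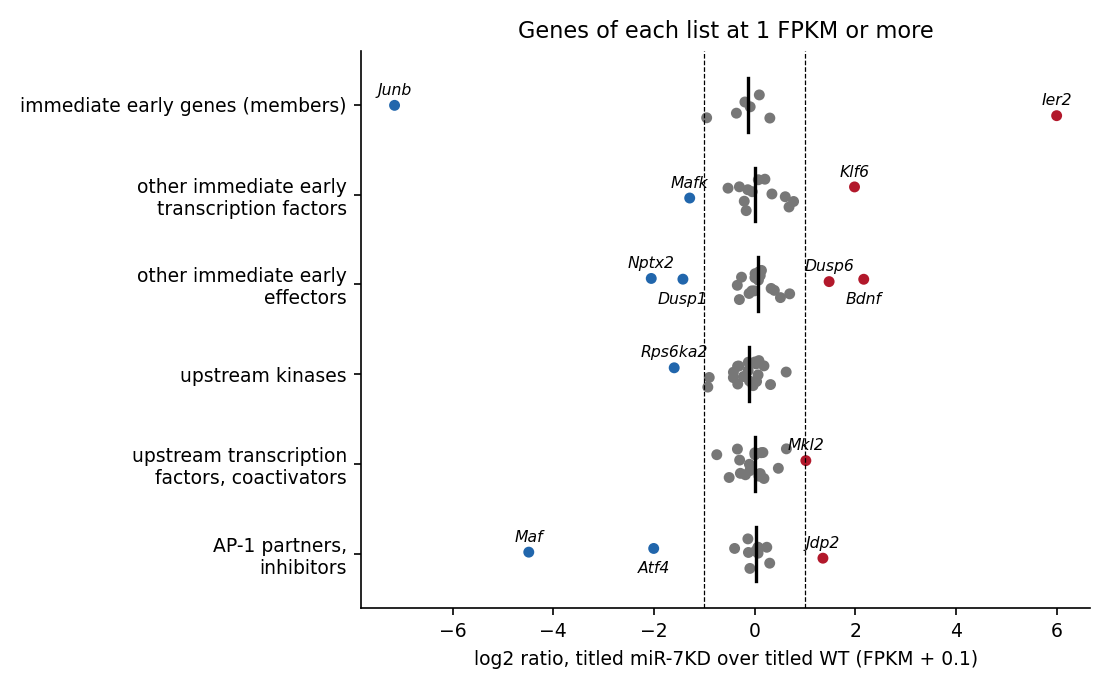
Log2 ratios of the miR-7KD-titled library over the WT-titled library (horizontal axis) for genes at 1 FPKM or more of each list, with red for at least 2-fold higher, blue for at least 2-fold lower, a black bar at the median of the list and dashed lines at 2-fold. Each median lies between -0.14 and 0.07, and between 1 and 4 genes of each list lie beyond the lines.

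Since the samples were bulk tissue, fewer cells of a type and less RNA per cell cannot be told apart, and so the make-up of both samples is given beside these values. Of the 68 cell type markers at 1 FPKM or more, 8 were called higher and 4 lower, beside 11.6% of all genes at that level. The markers called had from 1 exon (Cldn5) to 11 (Calb1). Since the share called over all genes differed by exon number, these counts are no result about the markers. Pan-neuronal markers were called in 0 of 8, excitatory neuron markers in 2 of 8 (summed FPKM 689 titled miR-7KD, 706 titled WT), inhibitory markers in 2 of 7 (227 and 233), striatal markers in 2 of 8 (149 and 97.6), cerebellar markers in 2 of 8 (201 and 178), astrocyte markers in 1 of 8 (455 and 567), microglial markers in 1 of 8 (109 and 114), oligodendrocyte markers in 1 of 7 (444 and 408) and endothelial markers in 1 of 6 (51.5 and 23.6). Single genes carried much of the difference in several of these sums. Without Ppp1r1b (74.1 FPKM in the miR-7KD-titled library, 30.8 in the WT-titled library) the striatal sums were 75.3 and 66.9, without Calb1 (50.8 and 17.6 FPKM) the cerebellar sums were 150.2 and 160.0, without S100b (35.4 and 121 FPKM) the astrocyte sums were 419 and 446, and without Cldn5 the endothelial sums were 26.8 and 23.6, in the miR-7KD-titled and WT-titled libraries. In the same order, the excitatory sums without Slc17a7 (63.6 and 118 FPKM) were 626 and 588, the other way round. Nrgn made up most of them, at 555 and 522 FPKM. The called excitatory markers ran opposite ways, Neurod2 at 30.4 and 6.53 FPKM and Tbr1 at 3.88 and 16.3 FPKM. The inhibitory sums also turned round without Npy, to 146 and 143. Striatal Drd1 and endothelial Cldn5 were listed at 0 in the WT-titled library. The part of these markers in the values of the immediate early genes was not tested.

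Immediate early mRNAs are known for rapid decay through AU-rich elements, which hold the pentamer ATTTA, and windows of 30 bases from the 3′-UTRs of Fos, Jun and Jund are shown to compare these elements. Capitals mark ATTTA and the longer TATTTAT, which contains it, and the last element of the Fos window is a TATTTAT whose final base lies just past the window. In the order given, they lie at chr12:85477114-85477143 (plus strand), chr4:95049079-95049108 (minus strand) and chr8:70700358-70700387 (plus strand) of GRCm38.
Fos 3′-UTR: TATTTATtaagatggattctcagaTATTTA
Jun 3′-UTR: tttgcttgtgcaTATTTATaatagcgttcg
Jund 3′-UTR: ccgattccgcccTATTTATgtttctactcg
On the transcript's own strand, the pentamer was in the longest 3′-UTR of 8 of the 10 immediate early genes and TATTTAT in 5 (Fos, Fosb, Fosl2, Jun and Jund), beside 70.4% and 30.9% of the 11883 genes with a 3′-UTR. Its density was 4.91 per kb in Fos, 4.12 in Junb and 3.24 in Jun, all above the upper quartile of 2.59 over all genes, and 0 in Ier2 and Arc. The median of the 10 genes was 1.68 per kb, beside 1.32 over all genes. The part of these elements in the differences of any of the genes was not tested.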

How the data were processed

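The authors deposited FPKM for genes, transcripts, unannotated genes and unannotated transcripts of both libraries, 1 titled miR-7KD and 1 titled WT. Bowtie 0.12.2 and mm8 appear in the submitters' processing notes, but positions match GRCm38, and no source used here names the program behind the FPKM. Depth is unknown, since whole reads could not be recovered from FPKM. Columns were assigned by the animal number in the titles.

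Log2 ratios used FPKM plus 0.1, which understates changes of low genes. Genes that reached 1 FPKM in either library were kept, and those at least 2-fold different were called. Exons and 3′-UTRs came from GENCODE M21 and promoters and microRNAs from RefSeq. Every listed member was to be named, and of 5 lists of related genes those at least 2-fold different, up to 6 per list. The 9 marker lists are given by counts. A gene of 1 list is not reported here and was left out of its counts. Members, lists and tests were chosen with earlier results of these data known. To check the code, the ratio and the call were run on FPKM multiplied by known folds, without noise and without values near 0. That run says nothing about the reliability of any call. Alternatives were other pseudocounts, minimums, folds, a rescaling, transcript sums, added unannotated transcripts and removal of genes at 0. Python 3.11.15, numpy 2.4.6, pandas 2.3.3 and matplotlib 3.10.9 were used.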

Additional observations from a re-analysis of the deposited data

Results flagged for a closer look

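Entries of the tables of unannotated transcripts that overlap immediate early genes, and that the ratios above leave out, were higher in the miR-7KD-titled library than in the WT-titled library in 3 cases. Over the 3′ end of the Junb model, the transcript on the Junb strand had 1.41 FPKM in the miR-7KD-titled library and 0.344 FPKM in the WT-titled library. A transcript of 7 exons on the opposite strand, over most of the span of Prdx2 on its strand and 328 bases of the Junb model, had 50.1 FPKM in the miR-7KD-titled library and was listed at 0 in the WT-titled library, while the gene value of Prdx2 was alike in both. Over Jund, the opposite-strand transcript had 2.20 FPKM in the miR-7KD-titled library and 1.49 FPKM in the WT-titled library. None of these differences has a replicate check.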

How the results depend on the processing

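The count of 1 immediate early gene called higher and 1 called lower changed in 3 of the 10 alternatives. The number lower was 2 with 0.01 FPKM added and 2 at a 1.5-fold threshold, with Npas4 beside Junb. The number higher was 0 when genes listed at 0 in one library were left out, since Ier2 is then not counted. The median log2 ratio lay between -0.19 and -0.09. Of 45 recomputed ratios of single genes under 5 alternatives, 44 kept their side of 2-fold and 1, that of Npas4, did not, and no gene changed direction. The size of the Junb ratio depended on the pseudocount, from -9.29 with 0.01 FPKM to -4.10 with 1 FPKM. That of Ier2, listed at 0 in the WT-titled library, did so too, from 9.30 with 0.01 FPKM to 2.87 with 1 FPKM. No paired analysis was possible because each title has 1 library. The libraries give neither depth nor replicate error, so that a difference of under 2-fold, as in Fos or Arc, cannot be set against the spread between animals, and an exact 0 may be a failed estimate.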

Other observations

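Over the members and all 14 other lists, 165 different genes reached 1 FPKM, and 25 were called (15.2%), beside 11.6% of all genes at that level. The share differed by exon number in the same way as over all genes, a pattern looked at after the values of Junb and Ier2 were seen: 3 of 5 genes of 1 exon were called, beside 11 of 31 with 2 to 3 exons and 11 of 129 with 4 or more. The 3 genes of 1 exon that were called were Junb, Ier2 and Cldn5, of which Ier2 and Cldn5 were listed at 0 in the WT-titled library. Cldn5, which encodes a tight junction protein of brain endothelium, had 24.7 FPKM in the miR-7KD-titled library.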
